A study of Homo sapiens with 6 samples.

Results

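The E2F transcription factors are the 8 genes *E2F1* to *E2F8*, chosen by symbol from the 60480 gene identifiers in the count table, and all 8 were among the 19778 genes with enough counts to be tested. RNA-seq of polyA RNA was done in OE-19 cells, an established line of adenocarcinoma of the esophagogastric junction (AEG). Libraries were made from 3 samples with a control knockdown (shControl, named Puro in the table) and from 3 samples with short hairpin RNA against IGF2BP3 (shIGF2BP3, here IGF2BP3 KD). Both groups are the same line in the same culture medium and differ by the hairpin alone, as far as the labels tell. IGF2BP3 binds mRNAs that carry m6A, a methyl mark on adenosine, and the comparison shows which transcripts differ when its hairpin is present. Other effects of the hairpin cannot be told apart here from the loss of IGF2BP3. Which hairpin or hairpins the KD libraries carry is not given in the sources used here, and neither is whether the 3 libraries of a group came from separate cultures, so the p-values measure the spread between these samples only.

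E2F proteins bind DNA at the promoters of genes for S phase entry, DNA replication and DNA repair. *E2F1*, *E2F2* and *E2F3* encode activators, which the retinoblastoma protein holds inactive until cyclin-dependent kinases phosphorylate it in late G1. *E2F4* and *E2F5* encode repressors that work with the pocket proteins p107 and p130, *E2F6* encodes a repressor that works with Polycomb proteins and without pocket proteins, and *E2F7* and *E2F8* encode atypical repressors that bind DNA without a DP partner. The genes of several members are themselves switched on by E2F proteins as cells approach S phase.

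Total counts ran from 58966114 to 69989087 in control libraries and from 53424071 to 63008137 in IGF2BP3 KD libraries. *IGF2BP3* itself stood at 108, 106 and 112 CPM (counts scaled to library size by the TMM method of edgeR) in control and at 14.4, 12.8 and 12.6 CPM in IGF2BP3 KD cells. Its log2 fold change was -3.03 ± 0.06 (SE). The 6 epithelial and OE-19 markers examined lay between 462 and 14653 CPM. Of 9 markers of immune, endothelial and stromal cells, 7 stayed under 1 CPM in every library, and *COL1A2* and *CD3E* were at 0 in all. The summed level of these 9 was 54.5 to 61.2 CPM in control and 83.1 to 83.7 CPM in IGF2BP3 KD libraries, almost all of it *CD68* (mean 35.8 and 51.9 CPM) and *COL1A1* (mean 21.7 and 30.8 CPM). These levels moved with the groups, and their part in the E2F results was not tested. In bulk RNA, fewer cells in a given state and less RNA per cell cannot be told apart.

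The promoters of the activators are shown first. They hold letters that match DNA words known for E2F proteins, and a part of these words in the change of the genes was not tested. RefSeq windows (GRCh38.p14), from 250 bases before to 50 bases after a transcript start, were at hand for 6 of the 8 members (7 windows, since *E2F3* has 2 starts), and not for *E2F5* and *E2F8*. The last 90 bases before the start are printed for the 3 activators, 5′ to 3′ on the strand of the gene. They lie on hg38 at chr20:33686386-33686475 on the minus strand for *E2F1*, chr1:23531234-23531323 on the minus strand for *E2F2* and chr6:20401789-20401878 on the plus strand for the first start of *E2F3*. Capitals mark matches, on either strand, to the E2F consensus words TTTCCCGC, TTTGGCGC, TTTCGCGC and TTTGCCGC and to the related word TTTCGCGG, which was added after these sequences had been seen.
E2F1: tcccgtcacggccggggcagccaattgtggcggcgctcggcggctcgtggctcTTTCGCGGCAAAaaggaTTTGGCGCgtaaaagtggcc
E2F2: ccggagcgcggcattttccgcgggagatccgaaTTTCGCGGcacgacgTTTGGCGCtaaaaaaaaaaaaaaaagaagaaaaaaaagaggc
E2F3: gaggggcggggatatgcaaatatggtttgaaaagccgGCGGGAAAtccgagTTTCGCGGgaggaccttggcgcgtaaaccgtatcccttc

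TTTCGCGG stood in the windows of *E2F1* and *E2F2* and in the first window of *E2F3*. It ran from base -37 to -30 before the start in *E2F1*, -57 to -50 in *E2F2* and -39 to -32 in *E2F3*. Each of these 3 windows also held a consensus word. In *E2F1* these were TTTGGCGC at -20 to -13 and, on the other strand, TTTGCCGC at -33 to -26, which overlaps TTTCGCGG. *E2F2* held TTTGGCGC at -42 to -35, and *E2F3* held TTTCCCGC on the other strand at -53 to -46. The windows of *E2F4*, *E2F6* and *E2F7* and the second window of *E2F3* held none of these 5 words. Of all 35116 promoter windows, 3.31% held a consensus word and 0.416% held TTTCGCGG, against 4.68% and 0.632% of the windows of tested genes. Since TTTCGCGG was taken from these 3 promoters, its presence in all of them was fixed by the choice. A match describes the letters only and does not show that a protein binds there.

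Among the E2F genes, 6 of 8 were lower in IGF2BP3 KD cells and none was higher. The activators *E2F1*, *E2F2* and *E2F3* fell to 66.8%, 68.4% and 66.3% of their control level. *E2F6* fell furthest, to 61.7%, while *E2F8* fell to 78.9% and *E2F4* to 82.9%. *E2F5* and *E2F7* did not pass the test. A gene is called lower or higher at an adjusted p under 0.05 in edgeR's quasi-likelihood test, which called 10.6% of all tested genes lower and 9.87% higher. The median log2 fold change was -0.44 over the 8 members, 0.01 over all tested genes and -0.28 over the 2088 genes called lower. In the same 6 members, every IGF2BP3 KD library lay below every control library, a pattern held by 17.8% of all tested genes. Values of 8 genes out of one regulatory circuit are not independent of each other.

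**Figure D1:**
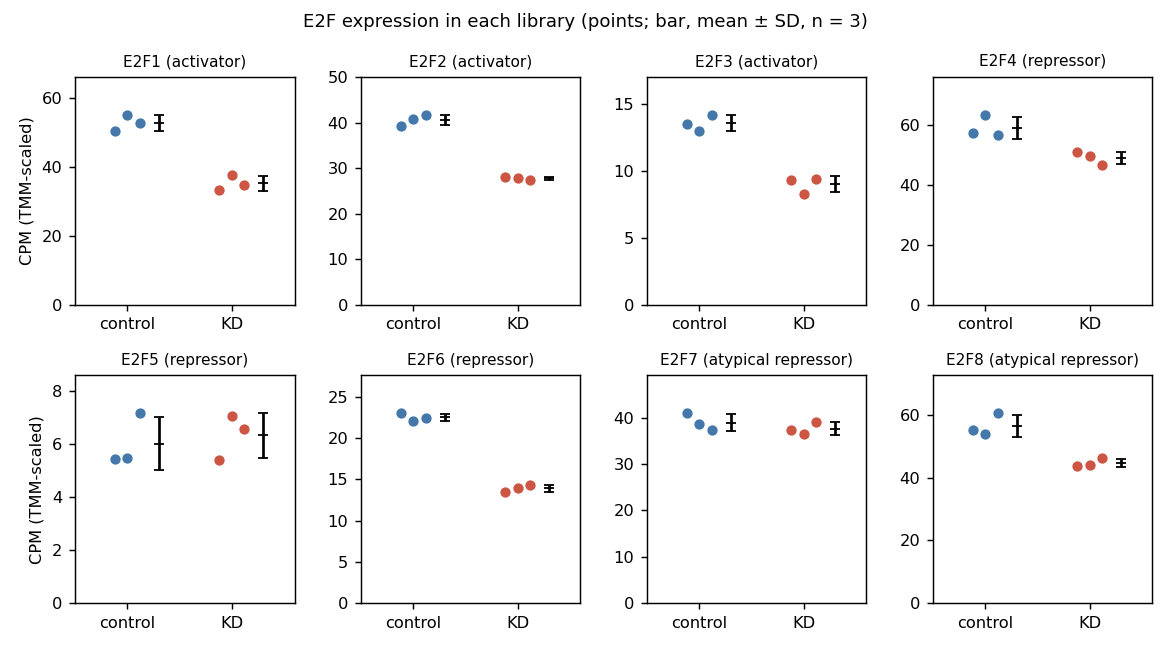
Expression of *E2F1* to *E2F8* (y axis, TMM-scaled CPM starting at 0) in each of the 3 control and 3 IGF2BP3 KD libraries, with points for libraries and bars for the group mean and SD. For *E2F1*, *E2F2*, *E2F3*, *E2F4*, *E2F6* and *E2F8* all IGF2BP3 KD points lie below all control points, while those of *E2F5* and *E2F7* overlap.

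Of the activators, *E2F1* (ENSG00000101412, chr20:33675477-33686385, minus strand) encodes the founding member, which drives S phase genes. It stood at 50.3, 55.0 and 52.7 CPM in control libraries and at 33.2, 37.5 and 34.8 CPM in IGF2BP3 KD libraries. These CPM rest on 3088 to 3832 counts per control library and 1793 to 2329 per IGF2BP3 KD library. The groups did not overlap, and the gap between them was several times the spread within either. Means were 52.7 ± 2.34 and 35.2 ± 2.17 CPM (SD, n = 3 each), and the log2 fold change was -0.58 ± 0.06 (SE) with an adjusted p of 5.5e-05 by edgeR.

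*E2F2* (ENSG00000007968, chr1:23506438-23531233, minus strand) encodes an activator that, like E2F1, binds the retinoblastoma protein. Control libraries held 39.4, 40.8 and 41.7 CPM and IGF2BP3 KD libraries 28.1, 27.8 and 27.5 CPM. The IGF2BP3 KD values were nearly equal, with an SD of 0.316 CPM around a mean of 27.8. The log2 fold change was -0.55 ± 0.05 (adjusted p 3.7e-05, edgeR).

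*E2F3* (ENSG00000112242, chr6:20401879-20493714, plus strand) encodes the third activator, and its transcripts arise from separate starts that counts per gene do not tell apart. Its levels were 13.5, 13.0 and 14.2 CPM in control libraries against 9.32, 8.30 and 9.36 CPM in IGF2BP3 KD libraries. The groups stayed apart although the counts were the fewest of the activators, 503 to 926 per library. The log2 fold change was -0.59 ± 0.09 (adjusted p 8.8e-04, edgeR).

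The falls of the 3 activators covered a narrow range, from -0.59 to -0.55 on the log2 scale. Within a library, the ratio of one activator to another showed no consistent shift. In none of the 3 activator pairs did the ratios of the IGF2BP3 KD libraries lie all below or all above those of the control libraries. The largest of these shifts was 0.05 on the log2 scale, for *E2F2* to *E2F3*, with an exact two-sided permutation p of 0.6.

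Among the repressors that work with pocket proteins, *E2F4* (ENSG00000205250, chr16:67192155-67198918, plus strand) encodes the main E2F of resting cells. It held 57.3, 63.5 and 56.9 CPM in control libraries and 51.0, 49.6 and 46.8 CPM in IGF2BP3 KD libraries. The second control library was the highest, and the groups did not overlap. The log2 fold change was -0.27 ± 0.06 (adjusted p 0.0067, edgeR). Without that control library it was -0.22 (adjusted p 0.029, edgeR).

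*E2F5* (ENSG00000133740, on chromosome 8) encodes the second repressor of this kind and was the lowest member. Control libraries held 5.43, 5.48 and 7.17 CPM and IGF2BP3 KD libraries 5.41, 7.06 and 6.57 CPM, so the groups overlapped. The log2 fold change was 0.08 ± 0.16 (adjusted p 0.806, edgeR) with a 95% interval of -0.27 to 0.42. This interval does not reach the estimates of the 3 activators, of *E2F6* or of *E2F8*. Its lower end, -0.2689, lies right beside the estimate of *E2F4*, -0.2705. *E2F5* shares 997 exonic bases with *RBIS*, a gene on the opposite strand with a log2 fold change of 0.09 (adjusted p 0.529, edgeR). The strand setting of the counting is not given in the sources used here, so reads of this stretch may belong to either gene.

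*E2F6* (ENSG00000169016, chr2:11444375-11466177, minus strand) encodes the repressor found in a Polycomb complex with MGA, L3MBTL2 and PCGF6. Its levels were 23.0, 22.1 and 22.5 CPM in control libraries and 13.5, 13.9 and 14.3 CPM in IGF2BP3 KD libraries. Both groups were tight, and the highest IGF2BP3 KD library lay far below the lowest control library. Means were 22.5 ± 0.454 and 13.9 ± 0.387 CPM, and the log2 fold change was -0.70 ± 0.07 (adjusted p 3.1e-05, edgeR). Among all tested genes, 4.43% had a log2 fold change at least as low.

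Of the atypical repressors, *E2F7* (ENSG00000165891, chr12:77021248-77065569, minus strand) held 41.0, 38.6 and 37.3 CPM in control libraries and 37.4, 36.5 and 39.2 CPM in IGF2BP3 KD libraries. The groups overlapped, and the log2 fold change was -0.05 ± 0.06 (adjusted p 0.648, edgeR). Its 95% interval, -0.18 to 0.08, ends above the estimates of all 6 members that were called.

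*E2F8* (ENSG00000129173, chr11:19224063-19241620, minus strand) encodes the partner of E2F7, with which it can form dimers. Control libraries held 55.2, 53.9 and 60.5 CPM and IGF2BP3 KD libraries 43.6, 44.04 and 46.1 CPM. The groups did not overlap, and the log2 fold change was -0.34 ± 0.06 (adjusted p 0.0014, edgeR). The pair of atypical genes thus gave 1 gene called lower and 1 gene not called. Their ratio, *E2F7* to *E2F8*, was higher in all IGF2BP3 KD libraries than in all control libraries, by 0.29 on the log2 scale, with an exact two-sided permutation p of 0.1, the smallest that 3 libraries against 3 allow.

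**Figure D2:**
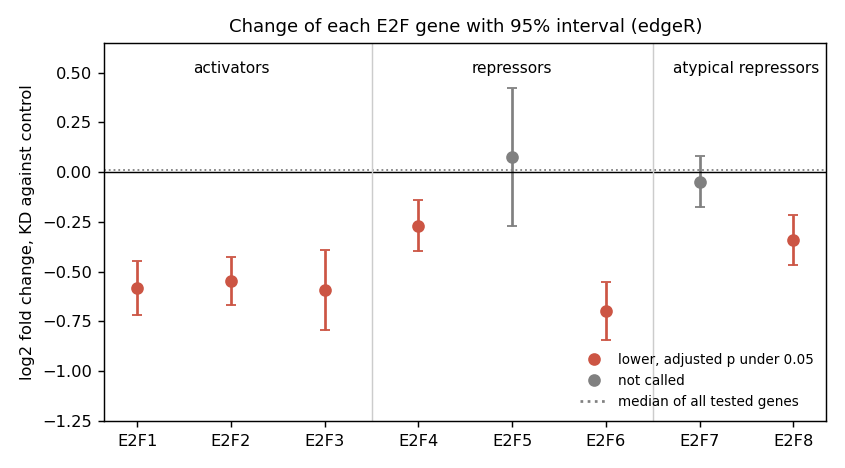
Log2 fold change of each E2F gene in IGF2BP3 KD against control cells (points), with the 95% interval of the edgeR fit (bars). The intervals of *E2F5* and *E2F7* include 0, while *E2F6* has the lowest estimate at -0.70.

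Levels of different genes were compared per kilobase of exon. In control cells *E2F1* led with 19.6 ± 0.870 CPM per kb, followed by *E2F4* with 16.5 ± 1.03 and *E2F8* with 13.7 ± 0.845 CPM per kb. *E2F2* (7.44 ± 0.217), *E2F7* (6.20 ± 0.296) and *E2F6* (5.54 ± 0.112) formed a middle group, and *E2F3* (2.61 ± 0.115) and *E2F5* (1.00 ± 0.165 CPM per kb) were lowest. No neighbours in this order had overlapping ranges over the control libraries. In IGF2BP3 KD cells *E2F4* and *E2F1* overlapped at the top, with 13.7 ± 0.599 and 13.1 ± 0.806 CPM per kb, and *E2F7*, at 5.998 ± 0.216, stood above *E2F2*, at 5.09 ± 0.0578 CPM per kb. This order depends on the length used. With the length of the main transcript alone, *E2F4* ranked first in both groups, at 28.1 and 23.3 CPM per kb.

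Activators were set against repressors by summing CPM per kb within each class. The sum over *E2F1* to *E2F3* went from 29.6 ± 0.993 to 19.9 ± 0.677 CPM per kb (SD, n = 3), a fall of 32.8%. The sum over *E2F4* to *E2F6* went from 23.0 ± 0.856 to 18.1 ± 0.456, a fall of 21.2%, and that over *E2F7* and *E2F8* from 19.9 ± 0.698 to 16.8 ± 0.525, a fall of 15.5%. All 3 sums were thus lower in IGF2BP3 KD cells, that of the activators by the widest margin. In control cells each sum came mostly from its highest member, *E2F1* (19.6), *E2F4* (16.5) and *E2F8* (13.7 CPM per kb). The sums hide differences between repressors, since *E2F5* and *E2F7* were not called and *E2F6* fell further than any activator. Activators made up 40.2%, 41.3% and 41.0% of the summed E2F level in control libraries and 35.6%, 37.2% and 36.1% in IGF2BP3 KD libraries. The groups did not overlap, and the mean share differed by -4.55 percentage points. No test is given, because the classes were set with earlier results of these data known. Without division by length, the share went from 36.8% to 32.2%.

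**Figure D3:**
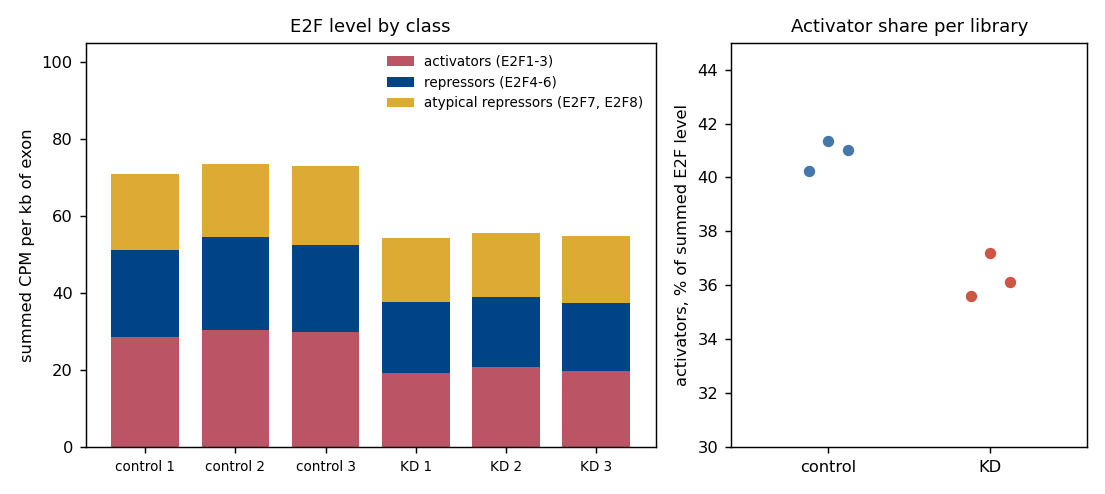
Summed level of E2F activators, canonical repressors and atypical repressors (TMM-scaled CPM per kb of exon) in each library, and the share of activators in the sum of all 8 genes (percent, on an axis that does not start at 0). The activator share lies between 40.2% and 41.3% in control libraries and between 35.6% and 37.2% in IGF2BP3 KD libraries.

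The ratio of an activator to a repressor within a library does not depend on how libraries are scaled. Of the 15 such ratios, 12 were lower in every IGF2BP3 KD library than in every control library. The 3 ratios with *E2F6* were the exceptions, and that of *E2F2* to *E2F6* was higher in every IGF2BP3 KD library. The ratio of *E2F1* to *E2F7* differed by -0.54 on the log2 scale and that of *E2F1* to *E2F4* by -0.31, each with an exact two-sided permutation p of 0.1, the smallest possible here. Groups that do not overlap always give this value here, so it adds nothing to the separation. The members and classes were also set with earlier results of these data known. The lower ratios were thus those to *E2F4*, *E2F5*, *E2F7* and *E2F8*. Of the 10 ratios of a repressor to another repressor, 3 were lower and 4 higher in every IGF2BP3 KD library, so full separation was not particular to the ratios of activators to repressors. The ratios share genes and are not independent measurements, and no share over all pairs of genes was computed.

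*E2F6* also stood apart in its 3′ UTR, the stretch of an mRNA behind its coding sequence. It was the only member whose main transcript (ENST00000381525) held the word GATTACT there, with 2 copies in 2102 bases. The word came out of an earlier analysis of these same libraries, so the counts given for it are a description. Both copies are shown in capitals, each with 10 bases on either side, on the minus strand of hg38 at chr2:11446300-11446326 and chr2:11445994-11446020.
E2F6 first copy: tcaccacttaGATTACTgagtaattgt
E2F6 second copy: ataatgttgaGATTACTtacgaaatat

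At least 2 copies were held by 107 of the 13753 tested coding genes (0.778%), of which 51 (47.7%) were called lower and 1 was called higher. Their median change was -0.18 on the log2 scale. Of the 12682 coding genes without the word, 12.7% were called lower. Since the word was found in these same libraries, this difference is no independent evidence. Genes were not matched for 3′ UTR length or level, and a part of the word in the fall of *E2F6* was not tested. The 3 activators, *E2F4* and *E2F8*, which were also lower, held no copy. At least 1 copy was held by 1071 tested coding genes, of which 376 (35.1%) were called lower and 72 higher. Among the other listed genes around E2F, 9 held the word, of which *CCND1*, *CDK4*, *FEN1*, *LIN54* and *RYBP* were called lower and *APAF1*, *BARD1*, *LIN9* and *RBL2* were not called. These 9 add no evidence on the word, since some of the lists were mostly lower as a whole. The 5-base word TGGAC, which holds the GGAC core at which m6A is often placed, occurred 3 times in the 3′ UTR of *E2F6*, 2 times in those of *E2F2* and *E2F3*, once in that of *E2F7* and not in those of *E2F1*, *E2F4*, *E2F5* and *E2F8*. Members with and without TGGAC were found both among those called lower and among those not called. Only the 3′ UTR of the main transcript was searched, and no share over all tested genes was computed. A part of TGGAC in the changes was not tested.

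Of the genes for DP partners and pocket proteins, which bind E2F proteins, 1 of 5 tested was called. Over all tested genes, 10.6% were called lower and 9.87% higher. *TFDP1*, the DP partner of most members, rose by 0.11 on the log2 scale, from 296 ± 6.87 to 320.4 ± 6.81 CPM (adjusted p 0.017, edgeR). *TFDP2*, the other DP gene tested, had a log2 fold change of 0.03 and was not called. None of the 3 pocket protein genes was called. *RB1*, the retinoblastoma gene, had a log2 fold change of 0.02, and *RBL1* and *RBL2*, which encode p107 and p130, had -0.12 each, with adjusted p of 0.211 and 0.0633 by edgeR. Of the 6 genes for the MuvB core and MYBL2, which take over from E2F proteins at cell cycle promoters, only *LIN54*, a DNA-binding subunit, was called, with a log2 fold change of -0.20. Counts this near the shares over all tested genes show nothing particular to these groups.

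Of the 8 genes for G1 cyclins and kinases that release E2F proteins from pocket proteins, 5 were lower and 2 were higher. The shares over all tested genes were 10.6% lower and 9.87% higher. The cyclin E genes fell furthest. *CCNE2* had a log2 fold change of -0.93, with 43.1 ± 1.83 CPM in control and 22.6 ± 0.826 CPM in IGF2BP3 KD cells, and *CCNE1* one of -0.63, with 28.3 ± 0.657 and 18.4 ± 0.753 CPM. *CDK4*, a kinase partner of cyclin D, fell by 0.51 on the log2 scale, *CDK2* by 0.20 and *CCND1* by 0.16, while *CCND3* rose by 0.13 and *CDK6* by 0.10. Cyclin E is both a product of E2F targets and an activator of the kinase CDK2, so *CCNE1* and *CCNE2* stand in the target list as well. *FBXO5*, *EZH2*, *RBL1*, *MYBL2* and *CDKN2C* are likewise counted both in the target list and in another list here. Counts of different lists are thus not separate. Of 7 genes for inhibitors of these kinases, *CDKN2B*, which encodes p15, was lower with a log2 fold change of -0.48 and the other 6 were not called. This share of 14.3% lower is near the share over all tested genes. Of 7 genes linked to E2F degradation, 3 (42.9%) were called lower. *CUL4A*, a ubiquitin ligase scaffold, fell by 0.50 on the log2 scale, *FBXO5* by 0.26 and *SKP2* by 0.17.

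The genes that E2F proteins switch on at the G1 to S transition were mostly lower. Of 60 such genes, 48 (80.0%, against 10.6% of all tested genes) were called lower, none was called higher, and the median log2 fold change was -0.39. *MCM7* and *MCM3*, subunits of the replicative helicase, had log2 fold changes of -0.49 and -0.47. Their means were 293 ± 3.95 and 208 ± 2.63 CPM for *MCM7* and 296 ± 4.37 and 213 ± 0.629 CPM for *MCM3*, control first. *WEE1*, a kinase that restrains CDK1, fell by 0.84 and *DNMT1*, the maintenance DNA methyltransferase, by 0.56 on the log2 scale. The 12 genes not called include *CCNA2*, cyclin A2, with a log2 fold change of 0.02 and *TYMS*, thymidylate synthase, with 0.03. *CDKN2C*, an inhibitor of CDK4 and CDK6, had the highest value of the list at 0.16 (adjusted p 0.0988, edgeR).

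The later G2/M program is driven by MuvB with MYBL2 and FOXM1. Of 30 genes of this program, 10 (33.3%, against 10.6% of all tested genes) were called lower and none higher. Their median on the log2 scale was -0.09. *BUB1B*, a spindle checkpoint gene, fell by 0.50, *TPX2*, a spindle assembly gene, by 0.26, *CDC25B*, a phosphatase that activates CDK1, by 0.24 and *PRC1*, which encodes a midzone protein of the spindle, by 0.23 on the log2 scale. The share called lower was smaller than among the G1/S genes. This difference between the lists was not tested. Both lists were written with earlier results of these data known, and their counts are not independent evidence of a direction.

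**Figure D4:**
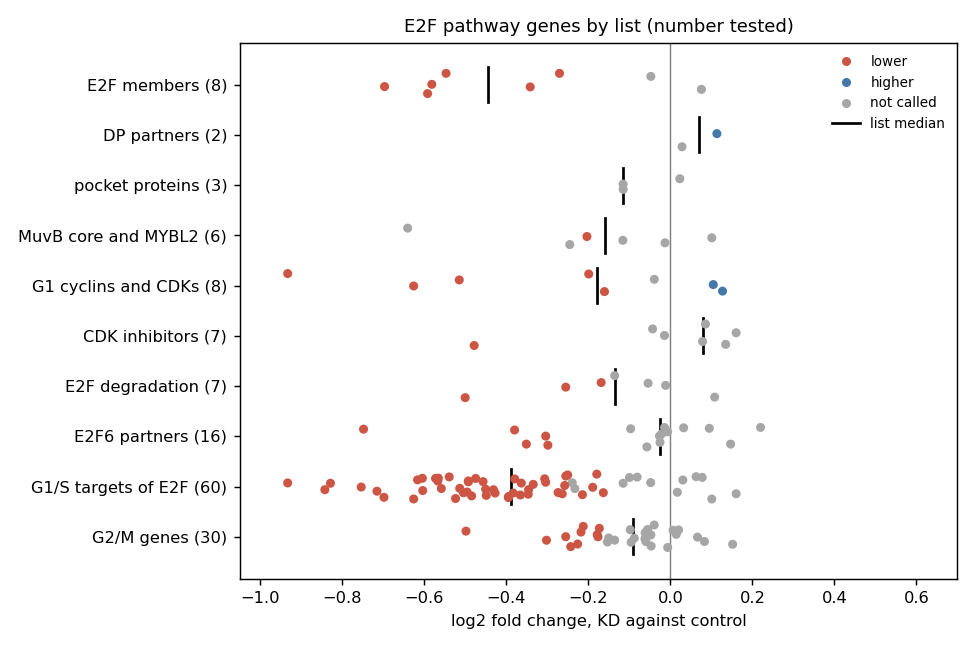
Log2 fold change (x axis, IGF2BP3 KD against control) of the tested genes in each list around the E2F genes (rows), with points for genes and a bar for the list median. The G1/S targets lie mostly to the left of 0, with a median of -0.39, while the G2/M genes center at -0.09.

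Promoter words were also compared between these lists. A consensus word stood in 38.4% of the 73 windows of G1/S genes and in 12.1% of the 33 windows of G2/M genes, against 4.68% of the windows of all tested genes. The G1/S genes were listed as targets of E2F, so a high share there follows in part from the choice. Genes of these lists also enter the counts over all tested genes below, which are thus not separate from the lists. Of 747 tested genes with a consensus word in a window, 162 (21.7%) were called lower and 69 (9.24%) higher, and their median change was -0.04 on the log2 scale. Of 11203 tested genes with windows but without the word, 13.1% were called lower and 12.6% higher. Most genes were not called in either direction, with or without a consensus word. A part of the word in these calls was not tested.

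Of 16 genes for Polycomb and histone-modifying proteins that join E2F6, 5 were lower (31.2%, against 10.6% of all tested genes), none was higher, and the median log2 fold change was -0.03. *PCGF6*, the subunit that defines the E2F6 complex, held 10.4, 11.5 and 11.2 CPM in control libraries and 6.11, 6.33 and 7.23 CPM in IGF2BP3 KD libraries. Its log2 fold change was -0.75 ± 0.11 (adjusted p 5.9e-04, edgeR). *HDAC2*, a histone deacetylase, fell by 0.38, *RYBP*, a subunit of the same complex, by 0.35 and *EZH2*, a histone methyltransferase, by 0.30 on the log2 scale. *L3MBTL2*, also of the complex, was called lower with a log2 fold change of -0.30, while *MGA*, the scaffold of the complex, had one of -0.01 and was not called. Of 5 germline genes that E2F6 is known to silence, 2 had enough counts to be tested and neither was called. These were *STAG3*, at 2.87 ± 0.273 and 3.55 ± 1.03 CPM, and *TUBB3*, at 15.8 ± 1.02 and 14.6 ± 2.10 CPM.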

How the data were processed

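Per the study's methods and the labels, polyA RNA libraries (directional kit) were sequenced as paired reads of 150 bases. Reads were trimmed with fastp, aligned to hg38 with HISAT2 and counted with featureCounts. The deposited values are raw counts per gene, which the authors did not normalize in this table. Tool versions, the annotation release and the strand setting are not given in the sources used here, so counts of overlapping genes are uncertain.

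From these counts, 132 repeated entries were left out. Libraries were scaled by TMM and tested with edgeR 4.0.16 (R 4.3.3), with glmQLFit and glmQLFTest on the 19778 genes that filterByExpr kept (minimum count 10, minimum total 15). No block was used, p-values were adjusted by Benjamini-Hochberg over these genes, and the threshold was 0.05. The test was checked on simulated counts. The common biological coefficient of variation was 0.148. A chi-square per degree of freedom over genes reached 9.86 to 17.6 within a group, so no library repeats another. Class sums and within-library ratios used no model, and ratios were tested by exact permutation. Gene positions, exon lengths and UTRs come from GENCODE 44, and promoters from RefSeq. Alternatives were DESeq2 1.42.0, RLE scaling, other filters, a replicate block, GC content offsets, each library left out and a threshold of 0.01.

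The members and gene lists were chosen with earlier results of these data known. Named genes are all members, all called genes of lists of up to 8 genes, and in longer lists the 4 lowest p among lower and 2 among higher genes. Other genes were chosen after their values were seen. Some genes of the lists are not reported here.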

Additional observations from a re-analysis of the deposited data

How the results depend on the processing

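The 6 members called lower kept that call under each of the 14 alternatives, leaving out single libraries included. With each library left out in turn, log2 fold changes ran from -0.63 to -0.55 for *E2F1*, -0.57 to -0.53 for *E2F2*, -0.63 to -0.54 for *E2F3*, -0.30 to -0.22 for *E2F4*, -0.72 to -0.68 for *E2F6* and -0.38 to -0.29 for *E2F8*. *E2F7* ran from -0.08 to -0.01 and *E2F5* from -0.0080 to 0.21, neither called. The value of *E2F5* changed sign without IGF2BP3 KD replicate 2, at -0.0080 (edgeR, adjusted p 0.987). The difference in activator share ran from -4.99 to -4.20 percentage points. G1/S genes called lower numbered 42 to 45 and G2/M genes 7 to 11. At a threshold of 0.01, which asks more of each gene, 1314 genes were lower and 1098 higher, in place of 2088 and 1953.

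Libraries with the same number did not deviate together over all tested genes (correlations of -0.03 to 0.01). This gives no sign of pairing but cannot exclude a shared batch. With the replicate block, *E2F6* had a log2 fold change of -0.70 (edgeR, adjusted p 2.7e-04), 6 members were lower, and 2026 genes were lower and 1875 higher. The counts limit *E2F5* most, with 292 to 438 per library.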

Other observations

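Within each class, the called member with the smallest p was set against 14288 other genes averaging 1 CPM or more, by the root mean square difference of their centred log2 levels over the 6 libraries. *E2F2* was most like *DNMT1* (0.0252), *CHD6* (0.0265) and *RAB18* (0.0297), *E2F6* was most like *VCL* (0.0197), *TM9SF3* (0.0215) and *CDC42SE2* (0.0250), and *E2F8* was most like *ZNF142* (0.0295), *ANXA6* (0.0302) and *ORC6* (0.0304). All 6 libraries enter each value, so genes with a like fold change and a like small spread come out on top, and *ANXA6* itself was not called.

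Among rows named for E2F pseudogenes, *E2F6P1* held 9, 17 and 9 counts in control libraries and 5, 2 and 3 counts in IGF2BP3 KD libraries, and no other such row held more than 4 counts. These counts are small beside the 729 to 1577 counts of *E2F6*.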
